A study of Homo sapiens with 45 samples.

Results

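Gained lamin B1 bins are stretches of the genome that lay outside the called lamin B1 domains of control HCT116 cells and inside those of cells depleted of HNRNPK. They were chosen by the lamin B1 domain lists themselves. Chromosomes 1 to 22 were cut into bins of 50 kb, and a bin was kept when at least 50% of its bases lay in the knockdown list and under 50% in the control list. This left 541 of 57509 bins, or 27.05 Mb. Of the other bins, 12066 were in lamin B1 domains in both lists (kept), 5012 in the control list alone (lost) and 39890 in neither (never covered). HCT116 is an established human colon cancer cell line. Cells were transfected with 25 nM of a nontargeting control siRNA or of an siRNA against HNRNPK and collected after 72 hours. Lamin B1 was precipitated from 3 libraries per siRNA, H3K9me3 from 3 and 3, H3K27me3 from 2 and 2, and H3K9me2 from 3 control libraries. RNA was sequenced from 4 control (siNTC5) and 4 HNRNPK siRNA libraries, and from 2 further nontargeting libraries named Scramble, made with the TruSeq kit from RNA purified with another kit and used here as added controls in an alternative only. In the siNTC5 and HNRNPK siRNA groups, replicates 1 and 2 were made with a TruSeq kit and replicates 3 and 4 with a Ligation kit. No untransfected cells and no second HNRNPK siRNA were analysed here. The labels do not say whether the libraries came from separate cultures, so the p-values measure the spread between these libraries, which may be technical.

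The nuclear lamina is a meshwork of lamins under the inner nuclear membrane. Chromatin that touches it forms long lamina-associated domains, which are usually poor in genes, rich in H3K9me2 or H3K9me3 and weakly transcribed. H3K27me3 is laid down by Polycomb repressive complex 2 and also marks silent genes outside the lamina. Chromosome ends in human cells are often rich in genes and in G and C. HNRNPK encodes heterogeneous nuclear ribonucleoprotein K, which binds C-rich stretches of RNA and single-stranded DNA and acts in transcription, splicing and the Polycomb pathway.

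As examples, and not as a sample of the sequence in these bins, 5 promoters are printed. They belong to 3 of the genes with the largest falls and the 2 with the largest rises in RNA, among genes with a promoter in the table that lay in a gained bin and with libraries that did not overlap between the groups; SNORD134, with a larger rise than SLC5A10, has no entry. Each runs 5′ to 3′ from 250 bases before to 50 bases after the gene's start, from RefSeq on GRCh38.p14. Capitals mark matches on either strand to CCCTCCCC, a C-rich stretch of the kind HNRNPK binds, or to GGGCGG, the GC box. Matches of the same or of both motifs can share bases and run together.
GPR146, chr7:1044296-1044595, plus strand: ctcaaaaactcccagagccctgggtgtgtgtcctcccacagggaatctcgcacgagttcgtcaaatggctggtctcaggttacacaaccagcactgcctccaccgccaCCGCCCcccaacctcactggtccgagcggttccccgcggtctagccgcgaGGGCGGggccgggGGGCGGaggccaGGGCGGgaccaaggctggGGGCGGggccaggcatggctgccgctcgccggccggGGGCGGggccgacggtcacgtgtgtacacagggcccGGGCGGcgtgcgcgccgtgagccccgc
MAN2B2, chr4:6574939-6575238, plus strand: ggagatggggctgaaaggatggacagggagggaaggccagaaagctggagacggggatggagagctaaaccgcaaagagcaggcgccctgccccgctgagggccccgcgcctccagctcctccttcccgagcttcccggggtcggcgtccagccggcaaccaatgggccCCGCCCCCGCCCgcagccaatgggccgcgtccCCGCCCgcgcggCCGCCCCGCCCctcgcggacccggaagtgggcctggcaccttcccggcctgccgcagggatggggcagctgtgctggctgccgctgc
MORN1, chr1:2391505-2391804, minus strand: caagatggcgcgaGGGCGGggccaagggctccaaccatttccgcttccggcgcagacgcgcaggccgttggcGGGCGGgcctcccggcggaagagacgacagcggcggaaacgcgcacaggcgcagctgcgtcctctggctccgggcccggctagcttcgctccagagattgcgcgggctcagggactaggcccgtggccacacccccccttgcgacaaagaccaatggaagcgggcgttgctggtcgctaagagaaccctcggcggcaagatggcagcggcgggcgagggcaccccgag
PKDREJ, chr22:46263294-46263593, minus strand: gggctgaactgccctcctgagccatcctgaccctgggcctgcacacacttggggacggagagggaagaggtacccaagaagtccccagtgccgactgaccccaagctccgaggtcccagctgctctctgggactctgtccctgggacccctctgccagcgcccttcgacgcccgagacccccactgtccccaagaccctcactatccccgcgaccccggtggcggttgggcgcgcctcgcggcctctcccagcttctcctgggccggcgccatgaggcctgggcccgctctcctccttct
SLC5A10, chr17:18950426-18950725, plus strand: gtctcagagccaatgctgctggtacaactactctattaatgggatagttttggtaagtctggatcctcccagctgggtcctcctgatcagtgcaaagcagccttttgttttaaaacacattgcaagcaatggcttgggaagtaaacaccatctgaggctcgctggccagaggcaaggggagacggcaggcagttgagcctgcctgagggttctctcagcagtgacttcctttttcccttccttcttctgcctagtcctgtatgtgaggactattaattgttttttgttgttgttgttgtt

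The promoters of GPR146, MAN2B2 and MORN1 held 7, 5 and 2 matches of GGGCGG, and those of PKDREJ and SLC5A10 held 0. None of the 5 held CCCTCCCC. Over all 27305 promoters of the table, 44.6% held GGGCGG and 12.8% held CCCTCCCC. The promoter of MAN2B2 was 74% G and C with 28 CpG dinucleotides, and that of SLC5A10 was 47.7% with 2. A match is a description of these letters and not a bound site.

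Library checks came first. HNRNPK itself, on chromosome 9 and outside the gained bins, was at 934, 967, 822 and 814 CPM (read counts scaled to library size by TMM) in control replicates 1 to 4. In knockdown replicates 1 to 4 it was at 250, 223, 157 and 164 CPM, below every control. edgeR put the log2 fold change at -2.17 (SE 0.06, adjusted p 7.29e-15). A two-sided exact permutation test returned p = 0.0286, the minimum for 4 against 4. LMNB1, the target of the lamin B1 antibody, was at 169, 191, 167 and 171 CPM in controls and 146, 147, 128 and 135 CPM in the knockdown. The groups did not overlap, at a log2 fold change of -0.33 (SE 0.05) and an edgeR adjusted p of 4.22e-06, or 0.058 with the 2 Scramble control libraries added. Total counts ran from 12107280 to 23633851. Of the colon epithelial markers 6 of 8 passed the count filter at 12.1 to 1159 CPM in controls, with VIL1 and LGALS4 under it; 4 rose, KRT19 fell, and CDX2 was at 12.1 and 12 CPM. Of the 11 blood, endothelial and fibroblast markers, COL1A1 was at 44.1 to 119 CPM (scaled here by library totals) and every other marker peaked at 2.82 CPM or less, with CD3E and PDGFRA at 0. Their summed level was 45.6 to 74.5 CPM in controls and 77.2 to 122 CPM in the knockdown, nearly all of it COL1A1, and its part in the results was not tested.

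The lamin B1 values that chose the bins are given as a description, with no test. Of the 541 bins, 409 (75.6%) were covered over their whole length in the knockdown list and 523 (96.7%) had no base in the control list. The highest control cover of any gained bin was 40%. Domain edges fall on steps of 5 kb, so cover moves in steps of 10%. There were 28 gained bins just inside the limit, at 50% in the knockdown, such as chr1:10700001-10750000 and chr1:204950001-205000000. Another 43 bins lay just outside it at 40%, such as chr1:10600001-10650000 and chr2:3350001-3400000. Each antibody and siRNA has 1 list, so bins carry no replicate spread, and read depth behind the lists is unknown. Neighbouring bins also share a domain: the 541 bins formed 152 unbroken runs with a median of 3 bins, of which 32 runs of 5 or more bins held 259 bins.

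Most gained bins came from whole new domains and not from the edges of old ones. Of the 730 knockdown lamin B1 domains 149 held a gained bin, and 114 of these, with 427 (78.9%) of the gained bins, had no base in the control list. Domains with gained bins stood low in the authors' score, with a median of 0.57 against 0.755 over all knockdown domains. Of the gained bins, 83.2% lay in the lower-scoring part of the knockdown domains, split at their median, against 11.0% of kept bins. The lowest score was 0.477 in the knockdown list and 0.267 in the control list, so the lists differ in where they stop. Holding both to 1 lowest score removed control domains only, since the knockdown list already stopped at 0.477. The rule then gave 782 bins, which include all 541 by construction.

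Gained bins gathered on a few chromosomes and toward chromosome ends. Chromosome 4 held 100, chromosome 1 held 73, chromosome 12 held 72, chromosome 17 held 70, chromosome 22 held 48 and chromosome 7 held 45. Together these 6 held 75.4% of gained bins and 30.1% of all bins. Chromosomes 11, 16 and 18 held 0. As a share of the bins outside control lamin B1 domains, 5.74% were gained on chromosome 22, 5.12% on chromosome 17, 3.65% on chromosome 4 and 3.53% on chromosome 12, against 1.34% over all.

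**Figure D1:**
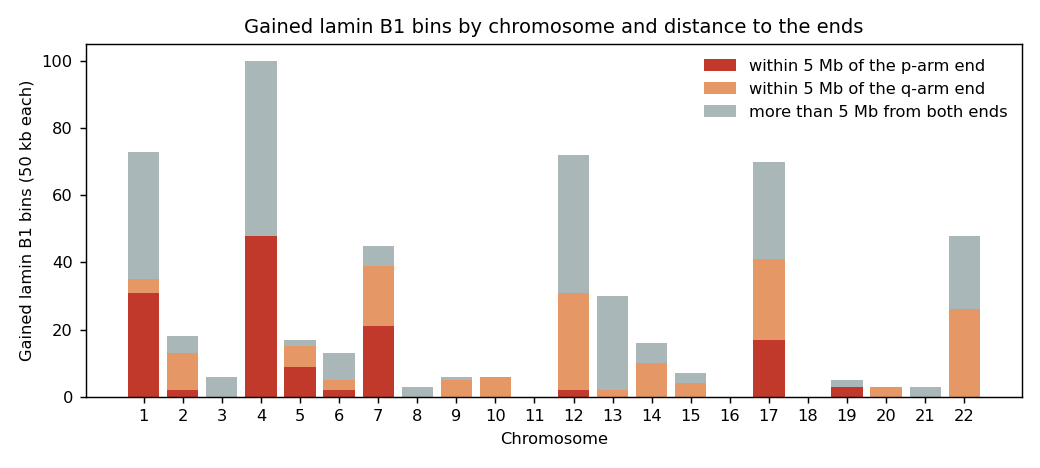
Number of gained 50 kb lamin B1 bins on each chromosome, split by distance to the chromosome ends. Chromosome 4 holds the most with 100, of which 48 lie within 5 Mb of the p-arm end, and chromosomes 11, 16 and 18 hold 0.

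Within 5 Mb of a chromosome end lay 286 gained bins, 52.9%, against 7.5% of never covered bins, 7.6% of kept bins and 4.5% of lost bins. Over all gained bins the median distance to an end was 4.3 Mb, against 35.7 Mb for never covered bins. Of the bins outside control lamin B1 domains, 8.68% were gained within 5 Mb of an end and 0.69% farther in. The pattern was uneven over the ends: 23 of 44 had a gained bin within 5 Mb, 9 on p arms and 14 on q arms. The p end of chromosome 4 had 48 of its 92 uncovered bins gained, the p end of chromosome 1 had 31 of 74, and the q end of chromosome 12 had 29 of 39. The q end of chromosome 22 had 26 of 64 and the q end of chromosome 17 had 24 of 101. The q end of chromosome 16 had 0 of 101. Assembly gaps were not removed from the bins. Beyond 5 Mb, chromosome 4 still held 52 gained bins, chromosome 12 held 41, chromosome 1 held 38, chromosome 17 held 29 and chromosome 13 held 28.

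**Figure D2:**
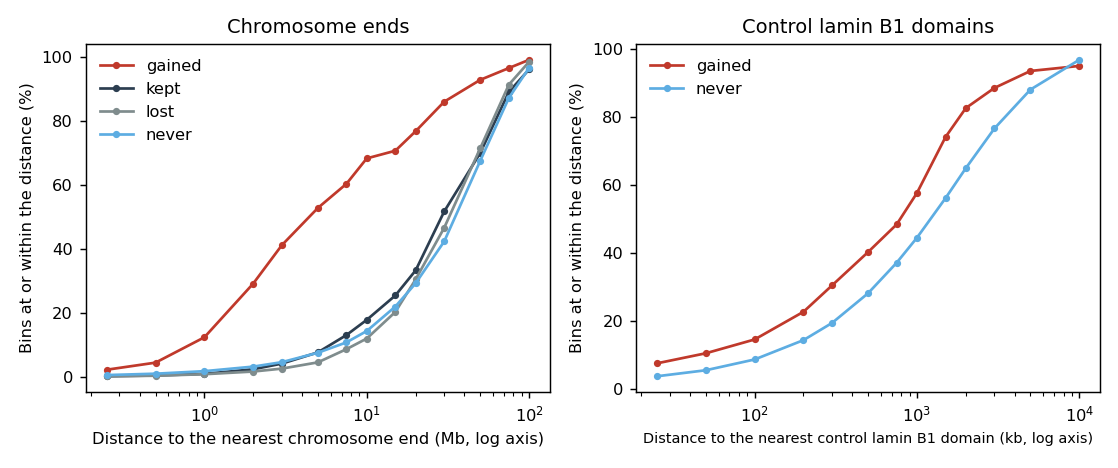
Cumulative share of bins of each lamin B1 class by distance to the nearest chromosome end (left) and to the nearest control lamin B1 domain (right). At 5 Mb from an end the gained curve stands at 52.9% and the never covered curve at 7.5%; at 500 kb from a control domain they stand at 40.3% and 28.2%.

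Gained bins were mostly detached from the control lamin B1 domains. Of the 541, 25 (4.62%) touched one, and 323 (59.7%) lay over 500 kb from the nearest. Never covered bins were farther away, with 2.03% touching one and 71.8% over 500 kb from the nearest. The touching share of gained bins was 9.091% with bins of 100 kb, 2.845% with limits of 75% and 25% and 2.43% with 1 lowest score for both lists. In that last setting distances were taken to the shorter control list, so its share is not like for like. Under the main rule the median distance of gained bins was 810 kb, against 1222.5 kb for never covered bins. By run, 24 of 152 touched a control domain and 56 lay over 1 Mb away. Gained bins near the ends were at a median of 867.5 kb and those farther in at 675 kb. These distances follow in part from the rule, which takes bins outside control domains.

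Gained bins carried each histone mark more often than never covered bins, and H3K9me2 less often than kept or lost bins. In control cells H3K27me3 domains covered at least 50% of 219 gained bins (40.5%), against 19.9% of never covered, 29.7% of kept and 77.6% of lost bins. H3K9me3 covered 95 (17.6%), against 4.8% of never covered, 7.8% of lost and 80% of kept bins. H3K9me2, the mark of 92.0% of kept bins, covered 54 (10.0%), against 1.1% of never covered and 26.2% of lost bins. With 1 lowest score for both lamin B1 lists, H3K9me3 covered 28.9% and H3K9me2 15.6% of the gained bins. A total of 259 gained bins (47.87%) had none of these marks and 173 (31.98%) had H3K27me3 alone.

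H3K9me2 marked 2 of 286 gained bins (0.7%) near the ends and 52 of 255 (20.4%) farther in. H3K9me3 marked 8.0% and 28.2%, and H3K27me3 marked 37.4% and 43.9%. Never covered bins within 5 Mb of an end had H3K27me3 in 29.1%, H3K9me3 in 3.6% and H3K9me2 in 0.1%. H3K9me2 was thus scarce there in both classes. Assembly gaps, which can hold no mark, were not removed from the bins, so these never covered shares may be too low. Whether H3K27me3 still differed near the ends without gaps was not tested. Seen from the marks, 0.85% of unmarked bins outside control lamin B1 domains were gained, 2.26% of those with H3K27me3 alone and 2.0% of those with H3K9me3 alone. The share was 8.77% (27 of 308) with H3K9me3 and H3K27me3, 11.95% (35 of 293) with H3K9me2 and H3K9me3, and 27.78% (5 of 18) with all of these marks. No test was made of these shares, since neighbouring bins are not independent and the lists have no replicates.

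**Figure D3:**
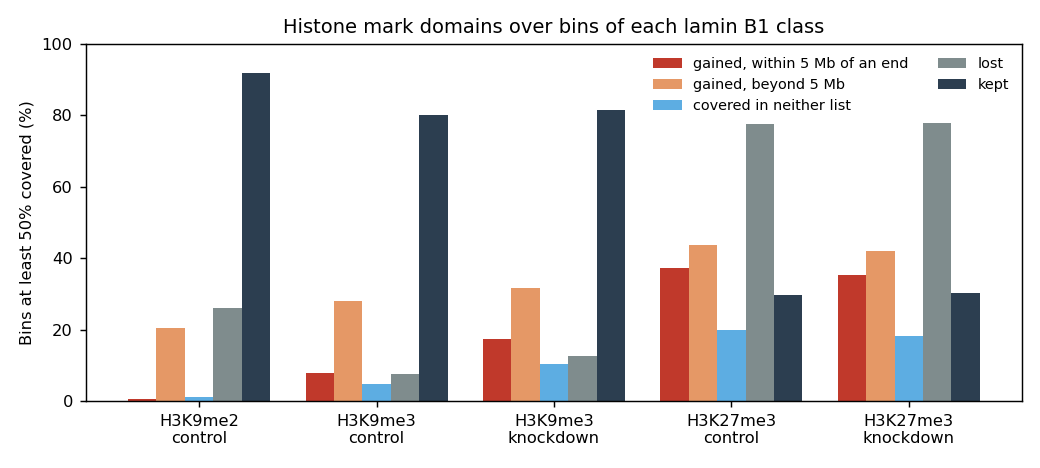
Share of bins at least 50% covered by each histone mark list, by lamin B1 class, with gained bins split by distance to the chromosome ends. Gained bins near the ends have H3K9me2 in 0.7% and H3K27me3 in 37.4%; kept bins have H3K9me2 in 92.0%, and lost bins H3K27me3 in 77.6%.

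After knockdown most gained bins with H3K27me3 or H3K9me3 were still marked, and some took up H3K9me3; no H3K9me2 list after knockdown was analysed here. H3K27me3 marked 207 gained bins in both lists, 12 in the control list alone and 1 in the knockdown list alone. H3K9me3 marked 91 in both, 40 in the knockdown list alone and 4 in the control list alone, so 131 (24.2%) were marked after knockdown. Of the gained bins without H3K9me3 in control cells 8.97% had it in the knockdown, against 6.13% of never covered, 5.39% of lost and 10.38% of kept bins. Near the ends H3K9me3 went from 8.0% to 17.5% of gained bins and farther in from 28.2% to 31.8%. In never covered bins it went from 3.6% to 9.9% near the ends and from 4.9% to 10.6% farther in. The H3K9me3 lists differ in length genome-wide, and its part in this change was not tested.

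The 5 longest runs show these kinds of gained chromatin side by side. The run chr4:1150001-1850000, of 14 bins, lay 1.15 Mb from the p end and 715 kb from a control domain, with H3K27me3 over 59.3% and H3K9me3 over 27.1% of its length in control cells. The run chr4:3200001-3900000, also of 14 bins, lay 1125 kb from a control domain and had H3K27me3 over 66.4% and no H3K9me3 or H3K9me2. The run chr12:132050001-132750000, of 14 bins, lay 0.53 Mb from the q end and 10 kb from a control domain, in a knockdown domain with 41.7% of its length in the control list. Its H3K27me3 covered 45.7%. These runs held 11, 6 and 10 protein-coding genes with most of their body inside.

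The other long runs held no counted gene. The run chr1:79400001-80050000, of 13 bins and 79.4 Mb from an end, had H3K9me2 and H3K9me3 over 100% of its length and no H3K27me3. Its H3K9me3 covered 80.8% after knockdown. The run chr12:29700001-30350000, of 13 bins and 2595 kb from a control domain, had H3K27me3 over 100%, H3K9me2 over 79.2% and H3K9me3 over 38.5%. A further run on chromosome 1, of 12 bins from 1950001 to 2550000, had none of the marks in control cells and H3K9me3 over 12.5% after knockdown. It holds MORN1 and most of CFAP74, described below.

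Most gained bins held genes. Of the 541, 485 touched a RefSeq gene, 395 a protein-coding gene and 319 (59%) a gene with enough counts to test, while 56 touched no gene. Genes were assigned to gained bins by having 50% or more of the body inside them, which gave 429 names of the count table, 310 of them protein-coding. That is 11.46 protein-coding genes per Mb, against 8.14 in never covered, 3.51 in lost and 1.44 in kept bins. Gained bins within 5 Mb of an end held 14.2 per Mb and never covered bins there 12.35. Farther in the values were 8.39 and 7.8 per Mb, so within either zone the classes lay closer than over all bins. Assembly gaps were not removed from these lengths, and a gap lowers the density of the class that holds it. The order of the classes near the ends was not tested without gaps. Of the protein-coding genes in gained bins 69.7% passed the count filter, near the 70.8% in never covered bins and above the 29.0% in lost and 11.9% in kept bins. A gene kept by that filter can owe it to either group.

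The RNA of genes in gained bins was lower in the knockdown more often than that of tested genes at large. Of 233 tested genes, 136 (58.4%) were lower and 37 (15.9%) higher at an adjusted p under 0.05 in edgeR, and 60 passed in neither direction. Over all 13933 tested genes 36.1% were lower and 35.5% higher. The median log2 fold change was -0.36 in gained bins, with quartiles at -0.89 and 0.01, and -0.004 over all tested genes. Falls of at least 2-fold numbered 44 and rises of at least 2-fold 8, where all tested genes had 8.28% and 7.47%. In 94 genes every knockdown library lay below every control and in 27 above, where all tested genes had 28% and 28.5%. In bulk RNA, fewer cells expressing a gene and less RNA per cell cannot be told apart. With the Scramble libraries as added controls, 107 of 224 tested genes were lower and 21 higher, and the median was -0.542. Shares and a median over all tested genes are not given here for that fit, so these values have no background beside them.

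The shift appeared in each knockdown library. Against the controls of its kit, the median log2 ratio over the 233 genes was -0.40, -0.43, -0.32 and -0.31 in knockdown replicates 1 to 4. The control libraries, which average 0 within a kit by construction, were at 0.10, -0.10, 0.02 and -0.02. All knockdown medians lay below all control medians, and those of the TruSeq libraries lay lower than those of the Ligation libraries. Over all tested genes with a position, the knockdown medians ran from -0.015 to 0.005. Genes in kept bins moved the other way, with knockdown medians from 0.23 to 0.34, and so did those in lost bins, from 0.24 to 0.28.

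**Figure D4:**
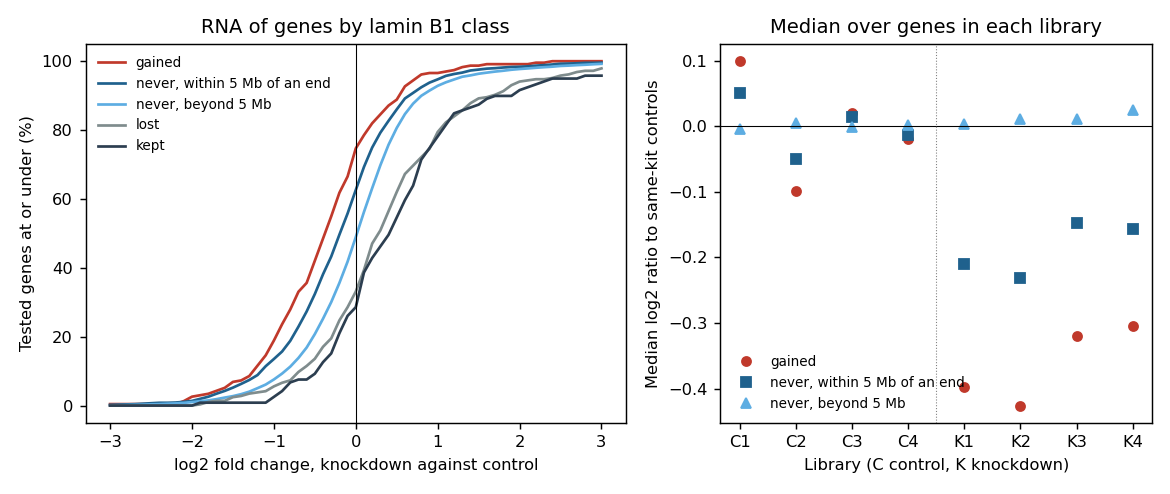
Left, cumulative distribution of log2 fold changes of tested genes by lamin B1 class; right, median log2 ratio over genes in each library against controls of the same kit (C1 to C4 control, K1 to K4 knockdown). At 0 the gained curve lies above the others, and its knockdown medians lie between -0.43 and -0.31, below those of never covered genes near the ends (-0.23 to -0.15).

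Genes near chromosome ends were also lower outside the gained bins. Of 1479 tested genes in never covered bins within 5 Mb of an end, 48.1% were lower and 24% higher, with a median log2 fold change of -0.20. The 152 genes in gained bins there had 61.8% lower, 14.5% higher and a median of -0.41. Farther in, the 81 genes of gained bins had 51.9% lower, 18.5% higher and a median of -0.31, against 35.0%, 36.9% and 0.02 for the 11187 genes of never covered bins. At ends with a gained bin the never covered genes had a median of -0.23 and at the other ends -0.13. Position near an end moved with the fall in RNA, and its part in the result was not tested.

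The never covered genes beside gained bins were lower as well. The 302 tested genes within 100 kb of a gained bin had 53.0% lower, 23.8% higher and a median of -0.25. From 100 kb to 1 Mb, 1224 genes had a median of -0.12, and beyond 1 Mb 9529 genes had a median of 0.02. On the chromosomes with no gained bin the median was -0.03. Within 100 kb, the median was -0.40 for the 164 genes near chromosome ends and -0.13 for the 138 genes farther in. Lower RNA was not confined to the called bins. Among the gained bins themselves the median was -0.33 in runs of 1 or 2 bins, -0.44 in runs of 3 to 9 and -0.28 in runs of 10 or more. It was -0.33 for genes up to 500 kb from a control lamin B1 domain and -0.39 for those farther away. The chromosomes with most gained bins all had a negative median in them: -0.23 on chromosome 4, -0.39 on chromosome 1, -0.17 on chromosome 12, -0.36 on chromosome 17, -0.42 on chromosome 22 and -0.55 on chromosome 7. Never covered genes of the same chromosomes had medians of 0.02, 0.04, 0.02, -0.01, -0.14 and 0.03.

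Genes with and without H3K27me3 were also counted apart. In gained bins, 24 tested genes had H3K27me3 over at least 50% of the body, of which 12 were lower and 1 higher, with a median of -0.36. The 209 without it had 124 lower and 36 higher, also with a median of -0.36. In never covered bins the 1088 tested genes with H3K27me3 had 25.7% lower, 40.6% higher and a median of 0.14, and the 11578 without it had 37.5% lower, 34.9% higher and a median of -0.02. The share of lower genes was smaller with H3K27me3 in both classes. Few genes in gained bins had H3K9me3 over most of the body: 5 were tested, 2 lower and 1 higher. These are counts with no test of the difference between the classes.

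The largest falls included a receptor, a glycan enzyme, a mitochondrial carrier and a histone demethylase. GPR146, a G protein-coupled receptor on chromosome 7, was at 1.13, 0.877, 1.40 and 1.86 CPM in controls and at 0, 0.0743, 0.253 and 0.330 CPM in the knockdown. It rested on 19 to 34 counts in controls and on 0, 1, 3 and 4 in the knockdown, where 0 counts in the first library allow up to 0.197 CPM. edgeR estimated -3.03 on the log2 scale with an SE of 0.46 (adjusted p 9.47e-06), a fitted value that depends on few counts. GPR146 overlaps the RefSeq gene CHLSN, and the strand counted is not given in the sources used here. MAN2B2, a mannosidase of the lysosome on chromosome 4, was at 67.0, 58.8, 71.4 and 70.1 CPM in controls. It was at 13.9, 14.3, 14.7 and 17.9 CPM in the knockdown, or 22.7% of control. The fall was close in both kits, and the difference in edgeR was -2.14 in log2 units (SE 0.07, adjusted p 3.14e-14).

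KDM4B, which removes methyl groups from H3K9 and H3K36, lay on chromosome 19 with 81.3% of its body in gained bins. Its controls were at 68.1, 39.6, 90.5 and 83.3 CPM, spread more than 2-fold, and its knockdown libraries at 14.5, 13.8, 20.8 and 19.4 CPM. On the log2 scale edgeR gave -2.02 (SE 0.13) at an adjusted p of 7.52e-11. SLC25A10, the mitochondrial dicarboxylate carrier on chromosome 17, was at 52.9, 47.6, 49.2 and 47.8 CPM in controls and 12.3, 13.0, 11.1 and 13.8 CPM in the knockdown. Its controls lay within a narrow range and edgeR estimated -1.97 on the log2 scale with an SE of 0.08 (adjusted p 1.97e-13). MORN1, a MORN repeat gene on chromosome 1, was at 3.47 to 5.80 CPM in controls and 0.725 to 1.52 CPM in the knockdown (log2 fold change -2.05, SE 0.22, edgeR adjusted p 9.51e-08). The pseudogene LOC100129534 lies inside it and fell by 2.18 on the log2 scale, and reads of this pair may be shared.

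PXMP2, a channel protein of the peroxisomal membrane in the long chromosome 12 run, was at 14.9, 15.4, 12.1 and 12.5 CPM in controls and 5.67, 4.01, 4.38 and 4.45 CPM in the knockdown. The difference in edgeR was -1.57 in log2 units (SE 0.12, adjusted p 1.21e-09). GPR153, an orphan receptor on chromosome 1, fell from 9.26 ± 1.47 to 2.62 ± 0.53 CPM (SD, n = 4 each). CFAP74, a protein of ciliary axonemes on chromosome 1, fell from 3.58 ± 0.77 to 1.10 ± 0.35 CPM (SD, n = 4 each). MYL5, a myosin light chain on chromosome 4 with H3K27me3 over 72.9% of its body, fell from 4.30 ± 0.86 to 1.34 ± 0.73 CPM (SD, n = 4 each). MYL5 overlaps SLC49A3, so reads of that pair may be shared. The lipocalin LCN12 on chromosome 9, at 11 to 20 counts in controls and 2 to 5 in the knockdown, had a log2 fold change of -1.72. PITPNA-AS1, antisense to the lipid transfer gene PITPNA, had -1.87, and its reads cannot be told apart from those of PITPNA where strand was not counted. These 5 genes had adjusted p from 1.84e-08 to 0.000808 in edgeR. MYL5 and LCN12 lost their calls with the Scramble libraries added, at adjusted p up to 0.114 and 0.393.

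**Figure D5:**
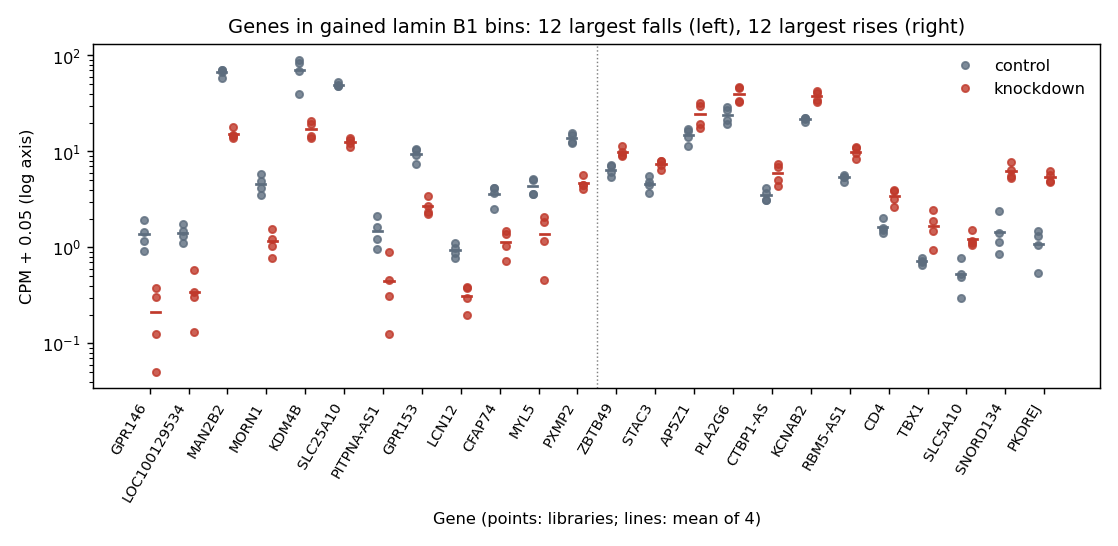
CPM plus 0.05 on a log axis in 4 control and 4 knockdown libraries for the 12 largest falls and 12 largest rises among genes in gained bins, with means as lines. The rule required that the groups do not overlap; MAN2B2 falls to 22.7% of control and KCNAB2 rises to 174%.

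The largest rises were fewer at high levels and mostly smaller. PKDREJ, a polycystin-family gene known from testis, lay on chromosome 22 and was at 1.01, 1.42, 1.27 and 0.493 CPM in controls and 6.20, 5.57, 4.72 and 4.86 CPM in the knockdown. On the log2 scale edgeR gave 2.34 (SE 0.22) at an adjusted p of 2.22e-08, resting on 9 to 34 counts in controls and 56 to 94 in the knockdown. SNORD134, a small nucleolar RNA on chromosome 17, gave an edgeR log2 estimate of 2.16 (SE 0.20, adjusted p 2.04e-08). It lies inside FASN, the fatty acid synthase gene, so reads of FASN may be counted in it. FASN itself moved the other way, from a mean of 1260 CPM in controls to 585.6 CPM in the knockdown. The part of FASN reads in the SNORD134 value was not tested. KCNAB2, a beta subunit of voltage-gated potassium channels on chromosome 1, was at 20.4, 22.3, 22.1 and 21.7 CPM in controls and 34.3, 33.0, 40.9 and 42.2 CPM in the knockdown. edgeR estimated 0.79 on the log2 scale with an SE of 0.08 (adjusted p 2.38e-08).

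PLA2G6, a calcium-independent phospholipase on chromosome 22, was at 21.1, 19.2, 27.1 and 29.3 CPM in controls and 33.2, 32.6, 47.1 and 46.1 CPM in the knockdown. Levels were higher in the Ligation libraries of both groups, and the difference in edgeR was 0.72 in log2 units (SE 0.07, adjusted p 1.98e-08). AP5Z1, a subunit of the adaptor complex AP-5, rose from 14.8 ± 2.63 to 24.6 ± 7.23 CPM (SD, n = 4 each). The zinc finger gene ZBTB49 on chromosome 4 rose from 6.40 ± 0.84 to 9.83 ± 1.14 CPM (SD, n = 4 each). STAC3, known from muscle excitation-contraction coupling, rose from 4.58 ± 0.80 to 7.30 ± 0.73 CPM (SD, n = 4 each). CD4, the T-cell coreceptor, went from 1.59 ± 0.26 to 3.38 ± 0.61 CPM (SD, n = 4 each), while the blood markers CD3E and PTPRC totalled 0 and 5 counts over the 8 libraries. These 4 genes had adjusted p from 1.56e-06 to 0.000293 in edgeR.

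The remaining rises were low or overlapped other genes. TBX1, a T-box factor of pharyngeal development on chromosome 22, had 11 to 16 counts in controls and 12 to 29 in the knockdown, for which edgeR gave 1.29 on the log2 scale (adjusted p 0.00119, or 0.0661 within the TruSeq libraries). SLC5A10, a sugar transporter on chromosome 17, had 6 to 11 counts in controls and 12 to 18 in the knockdown. Its log2 fold change of 1.35 turned to -1.27 with the Scramble libraries added as controls. SLC5A10 overlaps GRAP and FAM83G, the latter at a mean of 85.2 CPM in controls and 68 CPM in the knockdown. Reads of these genes may be counted in SLC5A10, and their part in its value was not tested. RBM5-AS1 rose by 0.89 and CTBP1-AS by 0.75 on the log2 scale, with adjusted p of 3.67e-06 and 0.000428 in edgeR. Both overlap the gene they are antisense to. Both lost their calls with the Scramble libraries added, RBM5-AS1 at an adjusted p of 0.0838, and CTBP1-AS also within the TruSeq libraries, at 0.0998.

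In the first chromosome 4 run, 8 protein-coding genes were tested and 5 were called, all lower. Among all tested genes in gained bins 58.4% were lower and 15.9% higher, and over all tested genes 36.1% and 35.5%. CTBP1, a transcriptional corepressor with H3K27me3 over 100% of its body, was at 80.5, 60.4, 98.5 and 85.5 CPM in controls and 30.9, 35.7, 45.5 and 42.3 CPM in the knockdown (log2 fold change -1.07, SE 0.08, edgeR adjusted p 1.23e-09). Its antisense CTBP1-AS was the one higher gene of the run, and strand was not given, so this opposite pair is uncertain. TMEM129, a ubiquitin ligase of the endoplasmic reticulum, was at 43.9% of control with a log2 fold change of -1.18, though it overlaps TACC3. MAEA, a subunit of the CTLH ubiquitin ligase, was at 61.3% of control (-0.72), UVSSA, of transcription-coupled repair, at 79.8% (-0.32; its call was lost within the TruSeq libraries and, at an adjusted p of 0.617, with the Scramble libraries), and the growth factor receptor FGFR3 at 85.5% (-0.23, adjusted p 0.0156 in edgeR). FGFR3 lost its call within the TruSeq libraries, without the kit term and without control replicate 1, at adjusted p up to 0.236. The histone mRNA-binding SLBP, the mitochondrial LETM1 and the spindle gene TACC3 passed in neither direction, with log2 fold changes of -0.05, -0.02 and 0.04.

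In the chromosome 4 run from 3200001 to 3900000, 5 protein-coding genes were tested. ADRA2C, the alpha-2C adrenergic receptor, had H3K27me3 over 100% of its body and was at 13.3, 8.48, 13.4 and 12.4 CPM in controls and 6.33, 6.24, 6.66 and 5.85 CPM in the knockdown. On the log2 scale edgeR gave -0.90 (SE 0.14) at an adjusted p of 1.28e-05. RGS12, a regulator of G protein signalling, had -0.63, and LRPAP1, a chaperone of LDL receptor relatives, had -0.27. MSANTD1 rose by 1.52 on the log2 scale from 0.674 to 1.88 CPM, with overlapping groups. DOK7, of the neuromuscular junction, was at 1.67 and 1.32 CPM and did not pass (adjusted p 0.246 in edgeR).

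In the chromosome 12 run from 132050001 to 132750000, 7 protein-coding genes were tested and neighbours moved apart. Besides PXMP2, NOC4L, a ribosome biogenesis gene, was at 24 ± 4.21 CPM in controls and 12.7 ± 3.45 CPM in the knockdown (SD over 4 libraries), falling by 0.93 on the log2 scale. FBRSL1 had -0.36, with its call lost without the kit term at an adjusted p of 0.107, and ANKLE2, of the nuclear envelope, had -0.18, with its call lost with the Scramble libraries at 0.939. The mitochondrial phosphatase PGAM5 rose by 0.28 and the helicase gene DDX51 by 0.33 on the log2 scale, DDX51 losing its call within the TruSeq libraries and, at an adjusted p of 0.414, with the Scramble libraries. POLE, the catalytic subunit of DNA polymerase epsilon, stood at 261 ± 35.3 and 265 ± 37.4 CPM (SD, n = 4 each) and did not pass (adjusted p 0.817 in edgeR). DDX51 lies next to NOC4L and PXMP2 next to POLE, so genes under the same knockdown domain went different ways.

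The treatment by kit interaction passed for 1 of 233 genes in gained bins, TACC3, at an adjusted p under 0.05 in edgeR, and for 0.129% of all tested genes (18 of 13933). With no filter on low counts it passed for 11 of 341 genes in gained bins, and the share over all genes is not given here for that fit. At an unadjusted p under 0.05 the interaction passed for 37 (15.9%) of the 233, against 11.8% of all tested genes. The genes listed here for the lamina and for histone methylation lie outside the gained bins and were read as background. KDM4B, described above and inside gained bins, was not on these lists. Over all tested genes 36.1% were lower and 35.5% higher, so counts on these short lists are not read as a response of the list. Of 11 lamina genes 8 fell and 2 rose, with a median log2 fold change of -0.26; LMNA, encoding the A-type lamins, was at -0.80, SUN2 at -0.94 and LMNB2 at -0.68. LEMD3 (0.44) and BANF1 (0.26) rose. Of 6 genes of H3K27 methylation, the demethylase gene KDM6A rose (0.65) and the others passed in neither direction, with EZH2 at 0.02. Of 7 tested genes of H3K9 methylation and its readers, EHMT1, SUV39H2 and CBX1 fell and CBX3 and CBX5 rose, with a median of -0.03.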

How the data were processed

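The lamin B1 and histone values are lists of called domains with a deposited score each, 1 list per antibody and siRNA. Per the submitters' processing notes, reads were handled with fastp 0.23.2, Bowtie2 2.5.1 and deepTools 3.1.3 on hg38. The caller, the use of input, the pooling of replicates and the unit of the score are not given in the sources used here. The deposited RNA values are raw counts per gene symbol, and the submitters' processing notes name STAR 2.7.1a, Subread 2.0.6 and featureCounts; the annotation and the strand counted are not given in the sources used here. Those notes name hg19 beside hg38 for RNA, so counts were used by gene name and positions were taken from RefSeq.

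Cover of each bin was computed per base, and all 21 domain ends off the 5 kb grid equal GRCh38 chromosome lengths. Of 28278 gene names 27606 (97.6%) were given a RefSeq position, 619 of them by a synonym; RefSeq gene positions and promoters are from GRCh38.p14. Counts were filtered with filterByExpr, scaled by TMM and tested in edgeR 4.0.16 (limma 3.58.1, R 4.3.3) by the quasi-likelihood test with library kit and treatment in the model, on all 13933 genes passing the filter. The Benjamini-Hochberg procedure was applied over all of them and calls were made under 0.05. The 2 Scramble control libraries, purified with another RNA kit, entered an alternative only. Libraries with the same replicate number deviated together, the correlations over genes being 0.1004 (replicate 1), 0.4246 (2), 0.3365 (3) and 0.2653 (4). Each is above the limit of 0.1 used for pairing, but these deviations include the kit, which libraries of the same number share. Within a kit the correlations were 0.0582 and 0.00904 (replicates 1 and 2, then 3 and 4), under that limit. The labels do not say what a number stands for. A fit with the replicate number as a block in place of kit gave 137 lower and 37 higher genes. A check of promoter base composition over the tested genes was void, because 175 of 233 (75.1%) had a promoter entry.

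The genes named are the 12 largest rises and 12 largest falls at an adjusted p under 0.05 with no overlap of the libraries, HNRNPK, LMNB1 and every tested protein-coding gene of the 5 longest runs. One promoter that the rule for printed sequences picked is not reported here. The bins, the gene lists and the tests were chosen with earlier results of these data known. Alternatives tried were other bin rules, normalisations (RLE, upper quartile), the Wald test of DESeq2 1.42.0, filters, covariates, each kit alone, each library left out and other assignments of genes to bins. The steps were tested on simulated data. The rest was done in Python 3.11.15 (numpy 2.4.6, pandas 2.3.3; figures in matplotlib 3.10.9).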

Additional observations from a re-analysis of the deposited data

Results flagged for a closer look

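TACC3, a spindle gene in the longest chromosome 4 run, responded differently in the library kits. Its treatment by kit interaction was 0.442 on the log2 scale (adjusted p 0.0365 in edgeR), with log2 fold changes of -0.17 within the TruSeq and 0.25 within the Ligation libraries. Control replicate 2 of LMNB1, at 191.3 CPM, stood above the other controls by a gap just past the limit used for 4 samples, which chance passes in about 1 in 20 groups. The rule leaves out the sex chromosomes: on chromosome Y, 27 of 928 bins outside control lamin B1 domains (2.91%) met the same limits, and on chromosome X 3 of 1888 (0.16%).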

How the results depend on the processing

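The share of gained bins that touched a control lamin B1 domain moved from 4.62% to 2.845% with limits of 75% and 25%, to 9.091% with bins of 100 kb and to 2.43% with 1 lowest score for both lamin B1 lists. That last setting also moved the shares with H3K9me2 to 15.6% and with H3K9me3 to 28.9%, the share over 500 kb from a control domain to 73.4% and the share within 5 Mb of an end to 40.54%. Its distances to control domains were taken to the shorter control list of that setting. The share with H3K9me3 was 24.21% by the knockdown list. Gained bins within 2 Mb of an end made up 29.21% and within 10 Mb 68.39%. The count of lower genes was 44 and of higher genes 8 when a 2-fold change was required as well, and the count of higher genes was 21 with the Scramble libraries added as controls. The median log2 fold change of genes in gained bins was -0.242 in DESeq2, -0.28 with no filter, -0.432 in the TruSeq libraries alone and -0.542 with the Scramble libraries added. Leaving out each library in turn gave medians from -0.44 (without control replicate 2) to -0.313 (without control replicate 1), 132 to 142 lower genes and 35 to 41 higher genes. With no filter 11 of 341 genes in gained bins passed for the kit interaction instead of 1 of 233. Shares over all tested genes are not given here for the alternative fits. SLC5A10 reversed to -1.27 with the Scramble libraries added, and TACC3, not called with all libraries, was at -0.17 in the TruSeq libraries alone. The causes were not tested. The replicate block gave 137 lower and 37 higher genes and a median of -0.358, and it changed no other call among the named genes. Of 45 named genes 30 kept their direction and their side of the threshold in the 18 alternative fits that gave a value for them; 11 lost a call in some fit and 3 gained one. Depth limits the genes under about 20 counts a library, and the domain lists carry no depth.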
